A study of Homo sapiens with 4 samples.

Results

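The VPS13 and ATG2 genes encode bridge-like lipid transfer proteins, and 6 of them, VPS13A, VPS13B, VPS13C, VPS13D, ATG2A and ATG2B, were followed by gene symbol through the 26830 symbols of a transcript table. The table comes from an RNA immunoprecipitation experiment (RIP-seq) on ALKBH5, the demethylase that removes N6-methyladenosine (m6A) from mRNA, in the NOMO-1 line, human acute myeloid leukaemia cells with monocytic features. All libraries came from NOMO-1 cells that overexpress ALKBH5 (ALKBH5 OE) from a lentivirus as a 3xFlag-tagged protein, after puromycin selection, sorting for GFP and UV crosslinking. The input group (2 libraries, input 1 and input 3, no antibody) holds RNA from the lysate, and the Flag-IP group (2 libraries, Flag-IP 1 and Flag-IP 3) holds RNA recovered with an anti-Flag antibody. The comparison of Flag-IP with input asks which transcripts are recovered with tagged, overexpressed ALKBH5. A pull-down from untagged cells is not analysed here, so transcripts recovered without ALKBH5 cannot be told apart from bound ones. Nothing in the labels says that libraries of a group are separate cultures, so p-values reflect only how much these libraries differ, and that spread may be technical.

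VPS13 and ATG2 proteins are long rods with a hydrophobic groove along which lipids can slide from one membrane to another. They act where membranes come close together, at contacts of the endoplasmic reticulum with mitochondria, endosomes, lysosomes, lipid droplets and forming autophagosomes. Scramblases in the membranes at either end, such as XK for VPS13A and ATG9A for ATG2, spread the delivered lipids over both leaflets. VPS13A loss causes chorea-acanthocytosis, VPS13B loss causes Cohen syndrome, and VPS13C and VPS13D are linked to Parkinson's disease and to a recessive ataxia. ATG2A and ATG2B feed lipids into the growing autophagosome, and either can largely stand in for the other.

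The start of the coding sequence is shown because it encodes the beginning of the N-terminal chorein region, the part that defines the family and takes up lipid at the donor membrane. The first 60 coding bases are given 5′ to 3′ on the coding strand, from GENCODE 29 transcripts on GRCh38. Capitals mark the start codon and every GGACT, which in RNA reads GGACU, the commonest form of the motif in which m6A is made. VPS13B is named without its sequence.
VPS13A, chr9:77177705-77177764, plus strand, exon 1: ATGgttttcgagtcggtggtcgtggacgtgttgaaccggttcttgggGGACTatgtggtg
VPS13C, chr15:62060315-62060374, minus strand, exon 1: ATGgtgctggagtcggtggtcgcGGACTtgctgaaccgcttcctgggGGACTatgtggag
VPS13D, chr1:12234267-12234326, plus strand, exon 2: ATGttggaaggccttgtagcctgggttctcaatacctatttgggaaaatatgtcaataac
ATG2A, chr11:64917076-64917135, minus strand, exon 1: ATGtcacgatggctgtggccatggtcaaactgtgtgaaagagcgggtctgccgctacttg
ATG2B, chr14:96362917-96362976, minus strand, exon 1: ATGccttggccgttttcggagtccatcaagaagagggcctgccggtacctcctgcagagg

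Compared base by base without gaps, VPS13A and VPS13C matched at 51 of 60 positions. The other pairs shown matched at 13 to 21 of 60, ATG2A and ATG2B at 21. VPS13A and VPS13C both carried GGACT at coding position 48, counted from the A of the start codon, and VPS13C also at position 24. No GGACT lay in the other starts shown. Such a match is a sequence of letters, and m6A was not measured in these libraries.

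The transcripts are among the longest of the tested genes. In GENCODE 29 the longest annotated transcript had 16357 bases for VPS13D, 15320 for VPS13A, 14579 for VPS13C, 14094 for VPS13B and 13684 for ATG2B, while ATG2A stood apart with 6357. Among 5968 tested protein-coding genes, whose median was 3567 bases, 1.21% had a longer transcript than ATG2B and 16.3% a longer one than ATG2A. The genes spread over 6 chromosomes: VPS13A lies on chromosome 9 (77177353 to 77421541, plus strand), VPS13B on chromosome 8 (99013266 to 99877580, plus), VPS13C on chromosome 15 (61852389 to 62060473, minus), VPS13D on chromosome 1 (12230030 to 12512047, plus), ATG2A on chromosome 11 (64894546 to 64917248, minus) and ATG2B on chromosome 14 (96279202 to 96363870, minus). GC content ran from 37.0% in VPS13A and 37.1% in VPS13C to 64.0% in ATG2A, where the tested protein-coding genes had a median of 49.5%. GGACT occurred 0.585 (ATG2B) to 1.04 (VPS13A) times per kilobase of the longest transcript, searched on the RNA strand only, against a median of 0.943. The transcripts therefore shared great length, ATG2A less so, but neither a GC content nor a GGACT density far to the same side of the median.

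Levels are in TPM, a length-corrected share of all transcripts that sums to 1000000 in each library. Depth is unknown in this unit, so no counting error is given. Structural RNAs such as ribosomal RNA took 96.3% to 96.8% of input and 92.5% to 93.6% of Flag-IP, and the median tested gene had 2.38 times more TPM in Flag-IP. Changes were therefore read both as deposited and on a median-ratio scale, where each library is divided by the median ratio of its tested genes, so that the typical gene lies near 0 (median log2 difference 0.84 as deposited and -0.01 after scaling). Of 14 myeloid markers, 8 were at 1 TPM or more in every library (CD33, ELANE, CTSG, PRTN3, AZU1, CD68, SPI1 and CEBPA), while MPO, ITGAM, CSF1R, CD14 and FCGR1A were below 1 TPM in all and LYZ reached it in 1 library. Summed TPM of the list was 76.1 to 90.0 in input and 129 to 136 in Flag-IP. Relative to the typical gene 6 of the 8 tested markers were lower and 0 higher, with a median of -0.53. Of all tested genes 18.6% were lower and 22.3% higher. The markers were short, with a median longest transcript of 1558 bases. With the trend on transcript length removed, as described below, 3 were lower and 0 higher, with a median of -0.23. In that fit 22.8% of genes were lower and 20.2% higher. Markers of T, NK, B, erythroid, epithelial and stromal cells were below 1 TPM throughout, except NKG7 (12.02 to 23.9 TPM; its source was not tested) and PECAM1, at 1 TPM or more in 2 libraries.

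All 6 lipid transfer transcripts were higher in Flag-IP, with no overlap between the groups, as for 93.1% of tested genes as deposited. VPS13C, which works at contacts of the endoplasmic reticulum with late endosomes and lysosomes, was the most abundant. It was at 1.67 and 2.01 TPM in input 1 and input 3 and at 23.8 and 13.95 TPM in Flag-IP 1 and Flag-IP 3. The groups were far apart, with Flag-IP 1 above Flag-IP 3. The ratio of the means was 10.3 (1.84 ± 0.240 against 18.9 ± 6.99 TPM, mean ± SD, n = 2 in each group here and below). For the level of a transcript in input, bulk libraries such as these cannot tell fewer cells carrying it from less of it per cell.

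VPS13D, needed for the shape and clearance of mitochondria, was at 0.550 and 0.520 TPM in the inputs and at 8.22 and 6.19 TPM in Flag-IP 1 and 3. The means were 0.535 ± 0.0212 and 7.21 ± 1.44 TPM, a ratio of 13.5. VPS13B, a protein of the Golgi complex, was at 0.270 and 0.360 TPM in the inputs and at 6.84 and 4.45 TPM in Flag-IP. It had the lowest mean of the family in input and the largest ratio, 17.9 (0.315 ± 0.0636 against 5.65 ± 1.69 TPM). The lowest Flag-IP value of VPS13B was 12.4 times its highest input value. VPS13A, found at contacts with mitochondria and lipid droplets, was at 0.690 and 0.710 TPM in the inputs and at 6.75 and 3.58 TPM in Flag-IP. Its inputs were the closest pair of the VPS13 genes while its Flag-IP libraries differed most, by a factor of 1.89, and the ratio of means was 7.38 (0.700 ± 0.0141 against 5.17 ± 2.24 TPM).

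The autophagy transcripts lay lower in Flag-IP than any VPS13 transcript. ATG2A was at 0.300 and 0.480 TPM in the inputs and at 2.81 and 2.75 TPM in Flag-IP, so here the inputs were spread and the Flag-IP libraries close. ATG2B was at 0.360 and 0.430 TPM in the inputs and at 2.91 and 2.15 TPM in Flag-IP. The ratios of means were 7.13 for ATG2A (0.390 ± 0.127 against 2.78 ± 0.0424 TPM) and 6.41 for ATG2B (0.395 ± 0.0495 against 2.53 ± 0.537 TPM). An exact two-sided permutation test of 2 against 2 libraries gave p = 0.333 for every member, the smallest it allows.

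**Figure D1:**
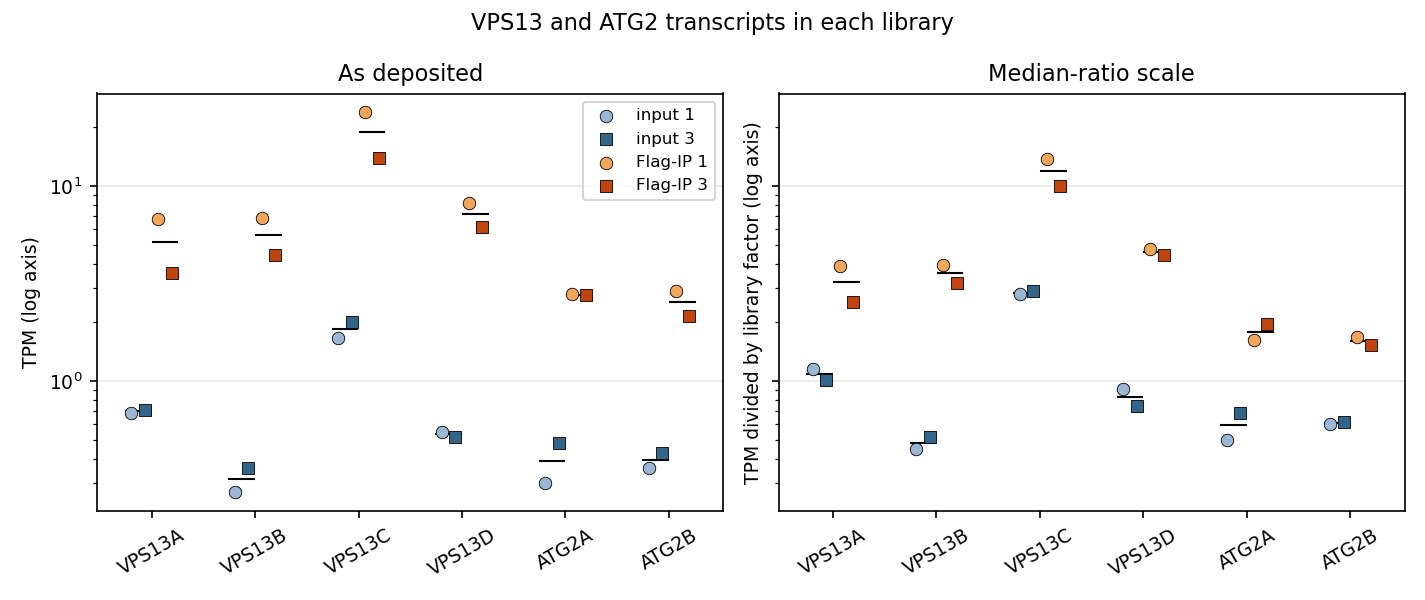
TPM of the 6 transcripts in each library on a log axis, as deposited (left) and after division by each library's median-ratio factor (right); circles are replicate 1, squares replicate 3, and black lines the mean of each group. Every transcript's Flag-IP points lie above its input points in both panels, from VPS13C (13.95 to 23.8 TPM in Flag-IP as deposited) down to ATG2B (2.15 to 2.91 TPM).

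The median-ratio scale sets each transcript against the typical gene; a limit that holds for 5 of the 6 follows the values. On the median-ratio scale limma on log2(TPM + 1) gave VPS13C 1.73 ± 0.16 (log2 difference ± SE, adjusted p = 0.0012), VPS13B 1.62 ± 0.12 (adjusted p = 0.00071) and VPS13D 1.61 ± 0.11 (adjusted p = 0.00055). VPS13A followed at 1.00 ± 0.17 (adjusted p = 0.0063), ATG2A at 0.81 ± 0.12 (adjusted p = 0.0041) and ATG2B at 0.70 ± 0.10 (adjusted p = 0.0036). Over all 6487 tested genes 22.3% were higher and 18.6% lower by this test, and 0.971% had a larger difference than VPS13C, 4.69% than VPS13A and 10.04% than ATG2B. The groups were likewise apart, with Flag-IP higher, for all 6 on this scale and for 37.0% of tested genes. As deposited, the differences ran from 1.33 (ATG2B) to 2.76 (VPS13C), where 86.6% of tested genes were higher and 0.740% lower. There limma's variance estimate followed the trend with level alone, so its adjusted p, 1.3e-35 to 1.3e-11 for the 6, may be too small.

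The test kept genes that averaged 1 TPM or more over the 4 libraries, and 5 of the 6 met this only through Flag-IP, since both of their inputs were below 1 TPM. Such genes had to differ as deposited, and those with the lowest inputs (VPS13B, VPS13D, ATG2A and ATG2B) had to lie above the median gene as well, so neither their number nor their place above it is support for a difference. Of the 1832 tested genes with both inputs below 1 TPM, 44.4% were higher on the median-ratio scale, and of the protein-coding ones 36.6% with the trend on transcript length removed. VPS13C alone was above 1 TPM in every library. Among the 3900 genes with both inputs at 1 TPM or more, 13.1% were higher. Without a filter 15678 genes were tested and 8.86% were higher. The 6 transcripts then had limma adjusted p from 0.010 (VPS13D) to 0.036 (VPS13A), with differences of 0.68 to 1.70.

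The size of the difference depends on what is added before taking logs, because the inputs are near 0. With 0.1 in place of 1, VPS13B led at 2.65, followed by VPS13D at 2.34, VPS13C at 2.01, VPS13A at 1.47, ATG2A at 1.46 and ATG2B at 1.27. The order of VPS13B, VPS13C and VPS13D among themselves was therefore not settled, while the 3 stayed above VPS13A and both ATG2 genes with either value. When structural RNAs were left out and the other genes rescaled to the same sum, the 6 lay between 1.57 (ATG2B) and 2.99 (VPS13B), where the median gene was at 0.24 and calls were 2206 higher (35.1%) and 711 lower (11.3%) against 1444 and 1207 on the median-ratio scale. In that fit the 1 was added after the rescaling had raised all values, so it weighed less on low values than on the median-ratio scale. With quantile scaling the 6 lay between 0.51 (ATG2B) and 1.80 (VPS13C).

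Transcript length moved with the difference across genes. Over the tested protein-coding genes Spearman's rho between length and the median-ratio difference was 0.47, a description across genes that share the same 4 libraries. Of 1119 such genes with a transcript of at least 6000 bases, 45.8% were higher and 6.61% lower, with a median difference of 0.30. Of the 463 that in addition had both inputs below 1 TPM, 59.0% were higher. A loess trend placed a gene of ATG2B's length at 0.58, of VPS13A's at 0.64 and of ATG2A's at 0.28 on the median-ratio scale.

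With the length trend removed from each library, the 6 transcripts ran from 0.12 to 1.12, where they had run from 0.70 to 1.73 on the median-ratio scale. Their calls then differed, but the transcripts were not tested against each other. VPS13C (1.12 ± 0.13, limma adjusted p = 0.00011), VPS13B (1.02 ± 0.12, adjusted p = 0.00011) and VPS13D (0.94 ± 0.12, adjusted p = 0.00018) were called higher, as was ATG2A (0.53 ± 0.12, adjusted p = 0.0046). VPS13A was at 0.37 ± 0.14 (adjusted p = 0.056) and ATG2B at 0.12 ± 0.10 (adjusted p = 0.38), and neither passed. In this fit 20.2% of 5968 genes were higher and 22.8% lower, and 1.74% had a larger difference than VPS13C, 17.8% than VPS13A and 36.04% than ATG2B. Of the 1699 genes in it with both inputs below 1 TPM, 36.6% were higher. All members but VPS13C are such genes and met the filter only through Flag-IP, so their calls here are no support for a difference. VPS13A and ATG2B thus passed without a length correction only, although VPS13A is longer than VPS13B and VPS13C.

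**Figure D2:**
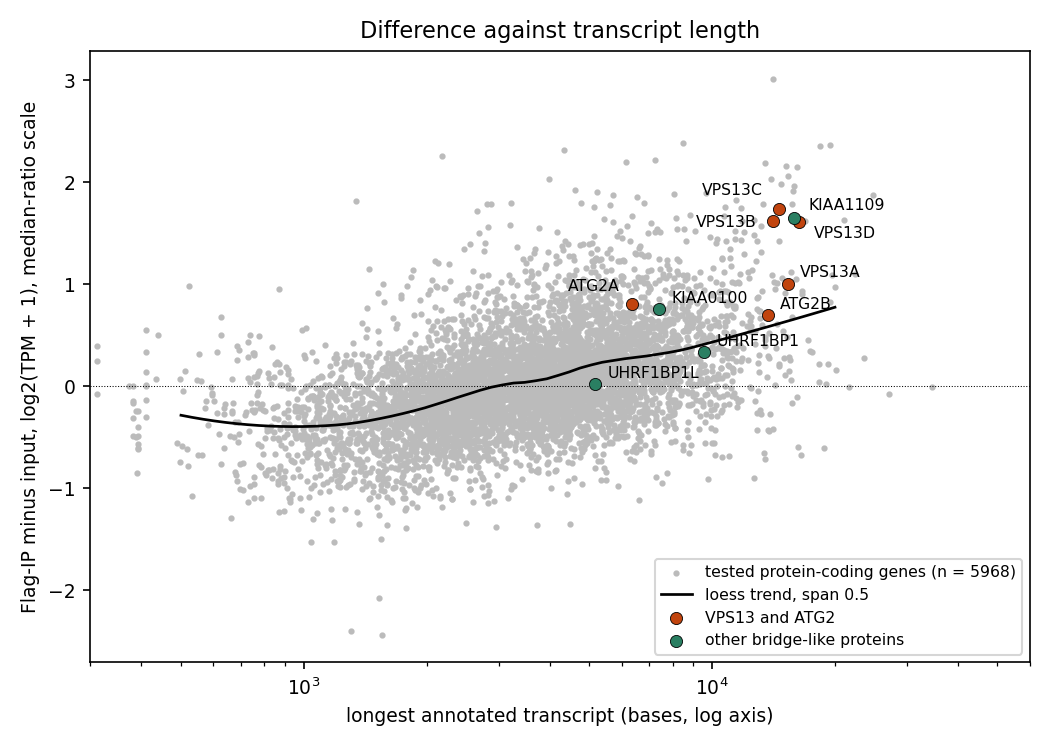
Median-ratio log2 difference (Flag-IP minus input) against the longest annotated transcript in bases (log axis) for 5968 tested protein-coding genes (grey), with their loess trend (black), the VPS13 and ATG2 genes (red) and the other bridge-like genes (green). VPS13B, VPS13C and VPS13D lie about 1 log2 unit above the trend, and ATG2B at 0.70 lies close to it.

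Ratios between transcripts of the same library do not change when a library is divided by a single factor, as in median-ratio scaling. VPS13B stood at 0.391 and 0.507 times the level of VPS13A in input 1 and 3, and at 1.01 and 1.24 times in Flag-IP 1 and 3. VPS13D likewise went from 0.797 and 0.732 times VPS13A to 1.22 and 1.73 times. For both ratios to VPS13A the Flag-IP values lay above the input values without overlap. How often other pairs of genes do so was not counted, and VPS13A, VPS13B and VPS13D all had both inputs below 1 TPM. VPS13C was 6.19 and 5.58 times VPS13B in input and 3.48 and 3.13 times in Flag-IP, so the gap between the most and the least abundant VPS13 transcript of the inputs narrowed.

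The ATG2 pair kept to a common level. ATG2A was 0.833 and 1.12 times ATG2B in input and 0.966 and 1.28 times in Flag-IP, ranges that overlap. VPS13B stood at 0.750 and 0.837 times ATG2B in input and at 2.35 and 2.07 times in Flag-IP. VPS13A, by contrast, was 1.92 and 1.65 times ATG2B in input and 2.32 and 1.67 times in Flag-IP, nearly the same in input 3 and Flag-IP 3. With 2 libraries a group these ratios could not pass a permutation test and were not tested further.

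In input the order of the mean levels, per length, was VPS13C, VPS13A, VPS13D, ATG2B, ATG2A and VPS13B. The first 3 did not overlap with each other or with the rest, while ATG2A, ATG2B and VPS13B lay within each other's spread. In Flag-IP the order was VPS13C, VPS13D, VPS13B, VPS13A, ATG2A and ATG2B. VPS13C stayed clear of all others, VPS13D, VPS13B and VPS13A overlapped, and so did ATG2A and ATG2B below them. VPS13C held a nearly constant share of the TPM of all 6, 43.5% and 44.6% in input 1 and 3 and 46.4% and 42.2% in Flag-IP 1 and 3. Together the 6 made up 0.0120% and 0.0123% of the TPM outside structural RNAs in input, and 0.0686% and 0.0515% in Flag-IP.

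The Flag-IP libraries differed from each other for these genes. Flag-IP 1 was above Flag-IP 3 by a factor of 1.89 for VPS13A, 1.71 for VPS13C, 1.54 for VPS13B, 1.35 for ATG2B and 1.33 for VPS13D, where the median tested gene had 1.22. ATG2A was level at 1.02. Without Flag-IP 1 the median-ratio differences ran from 0.60 (ATG2B) to 1.48 (VPS13C and VPS13D), with VPS13A at 0.73, and without Flag-IP 3 from 0.69 (ATG2A) to 1.92 (VPS13C), with VPS13A at 1.20. The median tested gene was at -0.004 without Flag-IP 1 and at -0.002 without Flag-IP 3. In both cases the Flag-IP group rested on 1 library.

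**Figure D3:**
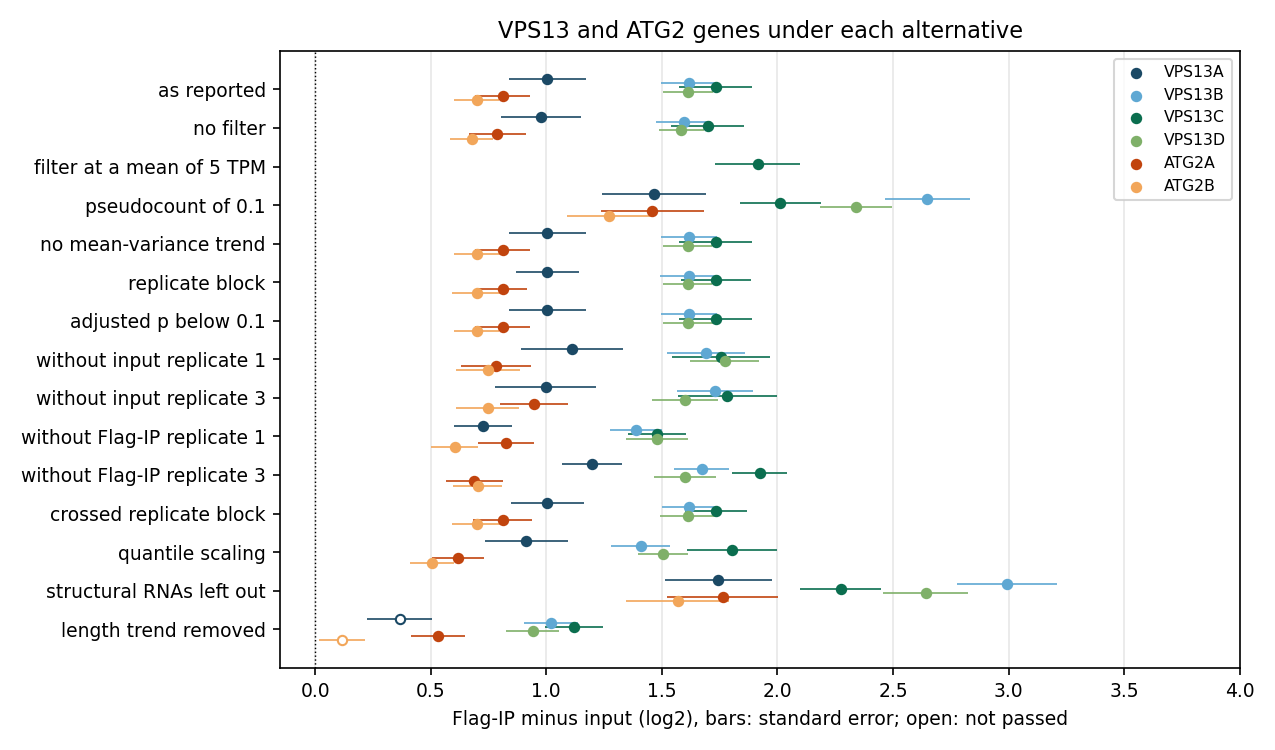
Median-ratio log2 difference of each VPS13 and ATG2 gene (bars: standard error) as reported and under each other way of processing; filled points passed limma's threshold and open points did not. All values lie above 0, and the open points are VPS13A (0.37) and ATG2B (0.12) with the length trend removed; at a filter of 5 TPM only VPS13C was left to test.

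Some members share their locus with other annotated genes, and the labels do not say whether reads were assigned by strand. COX6C, a subunit of cytochrome c oxidase, overlaps the 3′ end of VPS13B on the opposite strand and was at 8.66 and 10.2 TPM in input and 24.3 and 19.3 in Flag-IP, a ratio of means of 2.31. Its median-ratio difference was -0.06 (adjusted p = 0.66 in limma), against 1.62 for VPS13B, and its ratio was close to that of the median gene (2.38). GSKIP, which overlaps the 5′ end of ATG2B on the opposite strand, was below 1 TPM in all libraries. VPS13A-AS1, antisense to the start of VPS13A, was listed at 0 in all 4. SNORA59A, a small nucleolar RNA inside VPS13D on the same strand, was at 1.67 and 1.83 TPM in input and 1.14 and 1.32 in Flag-IP, the opposite direction to VPS13D.

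The remaining bridge-like lipid transfer genes behaved unequally. KIAA1109 (BLTP1), a giant member of the superfamily, was at 0.580 and 0.720 TPM in input and 10.02 and 6.64 in Flag-IP, a median-ratio difference of 1.65 ± 0.12 (limma adjusted p = 0.00067). It too passed the filter only through Flag-IP. KIAA0100 (BLTP2) was at 3.00 and 3.54 TPM in input and 15.8 and 13.02 in Flag-IP (0.76 ± 0.10, limma adjusted p = 0.0028). Both also passed with the length trend removed (0.99 and 0.44). UHRF1BP1 (BLTP3A) was at 0.33 ± 0.10 and passed (limma adjusted p = 0.039), but not with quantile scaling (0.25, adjusted p = 0.078) and not with the length trend removed, where it turned to -0.08. UHRF1BP1L (BLTP3B), at 0.630 and 0.780 TPM in input and 2.16 and 1.38 in Flag-IP, was at 0.02 and did not pass, and was at -0.12 with quantile scaling. The longest of these 4, KIAA1109 (15896 bases), lay beside VPS13B, VPS13C and VPS13D, and the shortest, UHRF1BP1L (5168 bases), lay at the typical gene. Between them the order was not that of length, since UHRF1BP1 (9570 bases, 0.33) lay below the shorter KIAA0100 (7407 bases, 0.76).

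Partners of VPS13 and ATG2 in the membrane, their scramblases and adaptors, moved both ways relative to the typical gene. Of 22 genes 13 could be tested, of which 3 were higher, 4 lower and 6 did not pass, with a median difference of 0.04, against 22.3% higher and 18.6% lower and a median of -0.01 over all tested genes. As deposited 11 of the 13 were higher and 0 lower (86.6% and 0.740% of all tested genes), and with structural RNAs removed 4 were higher and 1 lower (35.1% and 11.3%). ATG9A, the scramblase that pairs with ATG2, was at 0.710 and 0.720 TPM in input and 5.03 and 4.64 in Flag-IP (0.96 ± 0.11, limma adjusted p = 0.0019; 0.88 with the length trend removed), and had both inputs below 1 TPM. RHOT2, a mitochondrial Miro GTPase that recruits VPS13D and was singled out after its value was seen, was at 0.88 ± 0.12 (limma adjusted p = 0.0037), while the other Miro gene, RHOT1, was at 0.23 and did not pass (adjusted p = 0.17). GABARAP, an ATG8 protein bound by ATG2, was at 10.6 and 9.87 TPM in input and 13.7 and 13.5 in Flag-IP, which is lower than the typical gene (-0.79 ± 0.15, limma adjusted p = 0.0096). As deposited GABARAP was 0.38 above input, which did not pass (limma adjusted p = 0.090). RAB7A, the late endosomal GTPase that binds VPS13C, was at 5.50 and 5.90 TPM in input and 11.8 and 8.98 in Flag-IP (-0.36 ± 0.10, limma adjusted p = 0.035), 0.75 above input as deposited, and did not pass with quantile scaling (-0.24, adjusted p = 0.14) or structural RNAs left out (-0.17, adjusted p = 0.30). XK, the scramblase partner of VPS13A, was between 0.160 and 0.310 TPM and was not tested.

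Of 24 genes of autophagosome formation 13 were tested, of which 5 were higher, 1 lower and 7 did not pass (22.3% of all tested genes were higher and 18.6% lower), with a median of 0.06. On the deposited values 11 were called higher and 0 lower, where 86.6% of all tested genes were higher, and with structural RNAs removed 5 and 0, where 35.1% were higher and 11.3% lower. ULK1, the kinase that starts autophagy, was at 0.470 and 0.720 TPM in input and 3.52 and 3.16 in Flag-IP (0.73 ± 0.11, limma adjusted p = 0.0053), and also had both inputs below 1 TPM. MAP1LC3B, an ATG8 protein of the autophagosome membrane, was at 0.780 and 0.970 TPM in input and 1.60 and 1.06 in Flag-IP (-0.35 ± 0.10, limma adjusted p = 0.038). Both inputs of MAP1LC3B were below 1 TPM. It was 0.31 above input as deposited, which did not pass (limma adjusted p = 0.11). MAP1LC3B was also called lower with quantile scaling (-0.54, limma adjusted p = 0.018) and with the length trend removed (-0.36, adjusted p = 0.020). It failed the threshold with structural RNAs removed (-0.42, adjusted p = 0.16). BECN1, of the autophagy lipid kinase complex, was at -0.26 and RB1CC1, the scaffold of the ULK1 complex, at 0.13. Neither passed on the median-ratio scale. As deposited both were called higher (0.67 and 0.97, limma adjusted p = 0.0023 and 7.3e-06). With the length trend removed BECN1 was called lower (-0.44, limma adjusted p = 0.011), while RB1CC1 was at -0.16 and did not pass. The lipid transfer transcripts of the pathway, ATG2A and ATG2B, at 0.81 and 0.70, lay next to ULK1 at the top of its range. With the length trend removed ATG2A (0.53) stayed next to ULK1 (0.50), while ATG2B was at 0.12 and did not pass.

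Among 29 genes of shuttle and tubular lipid transfer proteins, which carry lipids singly or in smaller tubes, 18 were tested. Of these 5 were higher, 1 was lower and 12 did not pass, near the 22.3% higher of all tested genes and below the 18.6% lower, with a median of 0.10. On the deposited values all 18 were called higher (86.6% of all tested genes), and with structural RNAs removed 7 were higher and 0 lower (35.1% and 11.3%). NPC1, which exports cholesterol from lysosomes, was at 1.21 and 1.71 TPM in input and 10.4 and 8.42 in Flag-IP (1.12 ± 0.11, limma adjusted p = 0.0015; 0.90 with the length trend removed). GRAMD1A, a sterol carrier of the endoplasmic reticulum, was at 0.53 ± 0.12 (limma adjusted p = 0.017). NPC2, the soluble partner of NPC1, was at 6.96 and 8.34 TPM in input and 17.5 and 17.3 in Flag-IP (-0.07, not passed; 1.09 as deposited, 0.16 with quantile scaling and 0.17 with structural RNAs left out). OSBPL8, an oxysterol-binding protein relative that moves phosphatidylserine, was at -0.38 ± 0.12 (limma adjusted p = 0.043) and 0.42 above input as deposited. OSBPL8 was also called lower with quantile scaling (-0.46, limma adjusted p = 0.027) and with the length trend removed (-0.69, adjusted p = 0.0012). It failed the threshold with structural RNAs removed (-0.35, adjusted p = 0.18).

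**Figure D4:**
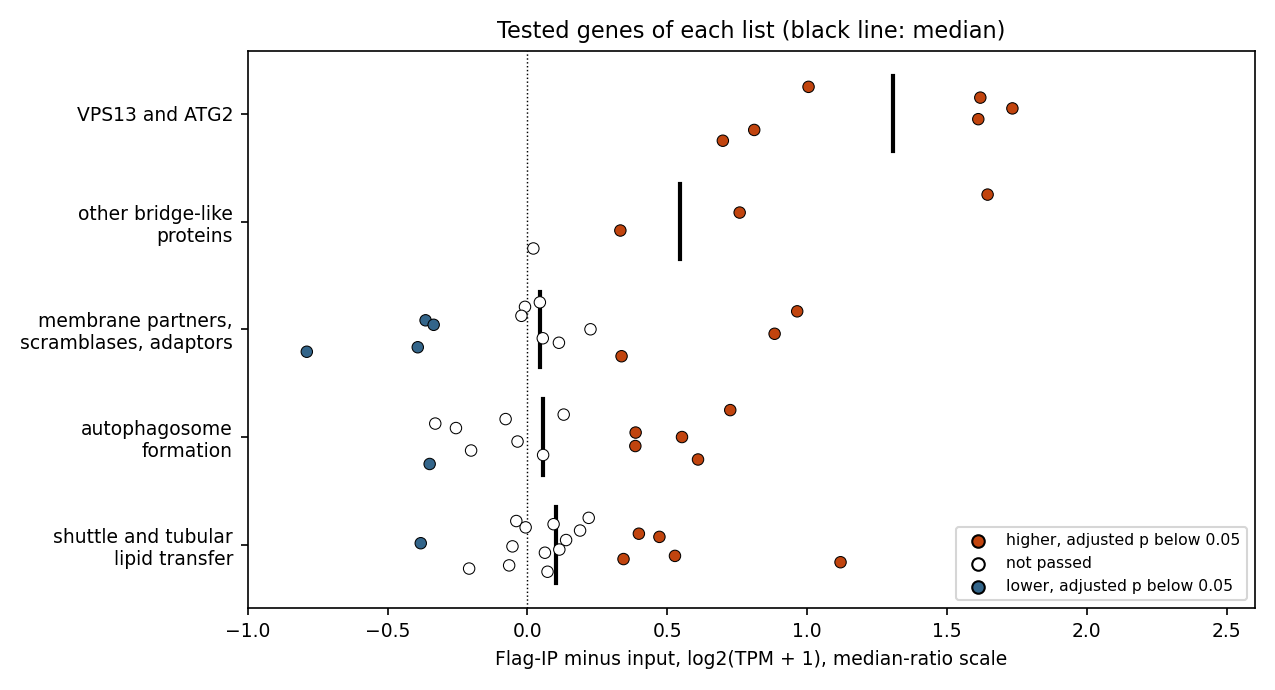
Median-ratio log2 difference of every tested gene in 5 lists, coloured by limma's call at an adjusted p below 0.05, with each list's median as a black line. The VPS13 and ATG2 genes run from 0.70 to 1.73, and the partner, autophagosome and shuttle lists have medians of 0.04, 0.06 and 0.10.

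The genes whose profile over the 4 libraries was nearest to the mean profile of the 6, by Euclidean distance of centred median-ratio log2(TPM + 1) values among tested protein-coding genes, were SPG11 (distance 0.0550), DMTF1 (0.0680), DDX39B (0.0702), PPP4R1 (0.0736) and FNBP4 (0.0817). The 6 themselves lay farther from their mean profile, from 0.318 (VPS13A, with 165 other genes closer) to 0.553 (ATG2B, with 475 closer). The 5 genes are therefore like the average of the 6 rather than like each of them. SPG11, which encodes spatacsin, a protein of lysosome reformation, was at 1.43 and 1.67 TPM in input and 12.6 and 9.33 in Flag-IP (1.24 on the median-ratio scale). DMTF1, a Myb-like transcription factor, was at 0.280 and 0.390 TPM in input and 5.11 and 3.32 in Flag-IP (1.27). The longest annotated transcripts of these 5 genes had 3925 (PPP4R1) to 7774 (SPG11) bases. They were thus shorter than those of the VPS13 genes and ATG2B.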

How the data were processed

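STAR and RSEM with GRCh38 are named in the submitters' processing notes; their versions, the annotation and the strand setting are not stated there. The authors deposited TPM per gene symbol with 2 decimals, for 4 libraries. TPM keep no depth. Symbols were matched to GENCODE 29 (GRCh38): 23794 directly, 24 through an older symbol, 3012 not or ambiguously, and all 6 members directly. The comparison of Flag-IP with input used log2(TPM + 1) of genes averaging 1 TPM or more, in limma 3.58.1 in R 4.3.3 (eBayes with a mean-variance trend, two-sided, Benjamini-Hochberg over all genes tested, adjusted p below 0.05), both as deposited and after median-ratio scaling (2 residual and 4.02 prior degrees of freedom in the latter). The fit was tested on simulated data. The length trend was a loess (span 0.5) of log2 values on log10 length per library, over tested protein-coding genes. Alternatives were 2 other scalings, no filter and a filter at 5 TPM, a pseudocount of 0.1, no trend, a threshold of 0.1, the replicate number as a block, length and each library left out; the filter was always taken over all 4 libraries. Members and lists were chosen with earlier results of these data known. Named were all members and other bridge-like genes, per further list the 2 tested genes with the highest mean and those with the largest and smallest median-ratio difference, the 5 genes of nearest profile, and genes overlapping a member.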

Additional observations from a re-analysis of the deposited data

How the results depend on the processing

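The 6 transcripts were above 0 in every fit run on either scale, and each passed limma's threshold wherever it was tested, except VPS13A (0.37, adjusted p = 0.056) and ATG2B (0.12, adjusted p = 0.38) with the length trend removed, which left 4 of 6 passing. All but VPS13C met the main filter only through Flag-IP. For them, agreement among the filtered fits is no support for a difference. With a filter at a mean of 5 TPM 1539 genes were tested and VPS13C was the only member among them, so 1 member was called higher on each scale; this filter left 1272 higher and 25 lower genes as deposited, and 392 and 355 on the median-ratio scale, since fewer genes were tested. Leaving structural RNAs out of the scaling gave 2206 higher and 711 lower genes. This fit also gave the added 1 less weight, since it was added after the other genes had been rescaled upwards. How much of the change came from that was not tested. With 1 library left out, its group rests on 1 library that is assumed to vary like the other group. Then 3939 (without input 1) to 5628 genes were higher and 28 (without Flag-IP 1) to 57 lower as deposited, and 961 to 1135 higher and 587 to 837 lower on the median-ratio scale, with the lowest counts of both without Flag-IP 1; all 6 transcripts passed each time. The shared replicate numbers are not said to pair libraries, and deviations of same-numbered libraries correlated at -0.19 over genes on the median-ratio scale. With the replicate block 4789 genes were higher and 35 lower as deposited and 1286 and 1055 on the median-ratio scale, with a crossed replicate block, chosen after seeing the data, 5908 and 58, and 1409 and 1275. The members near 0 TPM in input are limited by the 2 decimals of the table and by unknown depth.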
